A study of Mus musculus with 2 samples.

Results

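The genes described here are the enzymes and transporters of glycolysis and the genes of the hypoxia response, compared between a mouse rectal carcinoma line and a derivative of it that had grown in the lung. The list held 40 genes, chosen by symbol for these functions with earlier results of these data known. Of these, 35 were named by 1 symbol per probe set in the platform annotation, and 31 were measured, meaning that the representative probe set lay above the 40th percentile of its array on at least 1 array. For comparison, 13332 of the 18193 named genes on the array were measured by the same rule. All 31 measured genes were in fact above that floor on both arrays, so none entered through 1 line alone and none of their ratios is a bound.

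CMT-93 is an established mouse rectal carcinoma line, and the labels call the uninjected cells normal CMT-93 cells, that is, parental tumour cells and not normal tissue. CMT-93-PM1 cells were recovered from lung tumours of female C57BL/6 mice that received CMT-93 by tail vein at 6 weeks of age and were killed 8 weeks later, and were then grown as a primary culture. Both cultures were kept in the same DMEM-based medium with 10% serum, and the oxygen level, the cell density at harvest and the number of mice and tumours behind CMT-93-PM1 are not given in the sources used here. One array (n = 1) was hybridised for each line from 6 µg of total RNA, so every difference is between 2 cultures, with no replicate error and no test. The deposited values are log2 signals, and a log2 ratio below is lung-recovered minus parental, so that 1 is a 2-fold higher and -1 a 2-fold lower signal in the lung-recovered line.

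Glycolysis splits glucose into pyruvate in the cytosol, with ATP made in its later steps, and lactate dehydrogenase turns pyruvate into lactate, which leaves the cell with protons. When oxygen is short, prolyl hydroxylases no longer mark the alpha subunit of hypoxia-inducible factor (HIF) for destruction. HIF then pairs with ARNT, binds short DNA sites with the core letters ACGTG or GCGTG, and raises genes of glycolysis as well as genes for blood vessel growth, mitochondrial removal, collagen modification and growth control. Tumour cells often run glycolysis even with oxygen present.

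In the lung-recovered line, every measured glycolytic enzyme gene of the list had a lower signal than in the parental line, 12 of 12. The sizes ran from 1.09-fold to 2.27-fold, and the listed Gpi1, Gapdh and Eno1 were not analysed. Of 23 measured isozymes, transporters and lactate genes outside the list, 16 were below 0 and 7 above. Among those above was the muscle enolase gene Eno3, 5.94-fold higher. The regulators of glycolytic flux went both ways, with Pfkfb3 5.35-fold higher. HIF target genes outside glycolysis were mixed: Ankrd37, Ddit4 and Bnip3 were more than 2-fold lower and Ero1l 1.88-fold lower, while Vegfa, Ndrg1 and Mxi1 were 1.34-fold to 1.49-fold higher. Hif1a itself was 1.31-fold higher. Among all 31 genes, 24 had log2 ratios below 0 and 6 above, where 48.7% of all measured genes were below 0. At least 2-fold lower were 4 genes, against 2.55% of all measured genes, and at least 2-fold higher was 1, against 4.42%. At 1.5-fold the counts were 9 lower and 1 higher, against backgrounds of 6.95% and 11.5%. The median log2 ratio was -0.34 for the 31 genes and 0.00 for all measured genes.

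**Figure D1:**
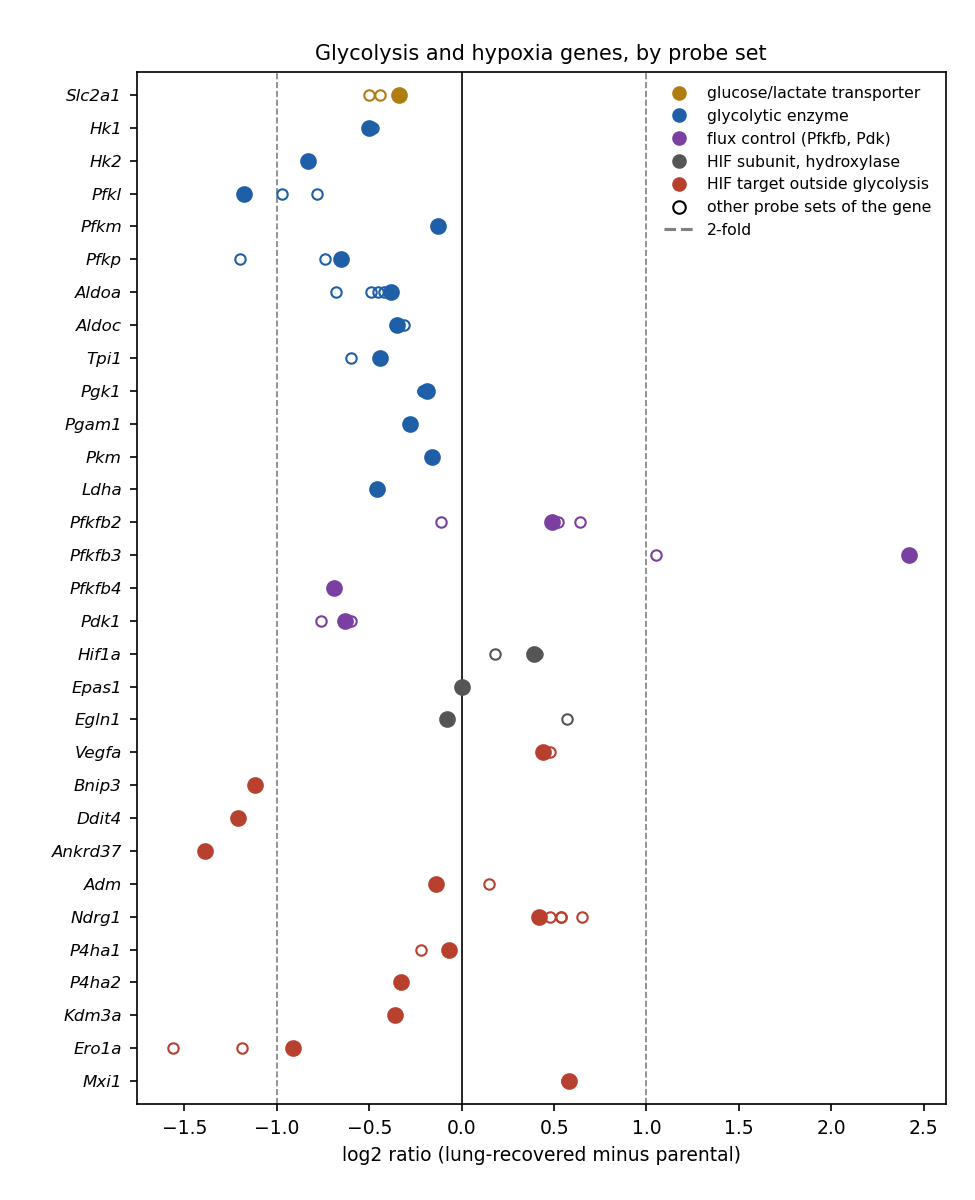
Log2 ratio (x axis, lung-recovered minus parental, 1 array per line) of the 31 measured genes, coloured by role. Filled points are the representative probe sets, open points the other measured probe sets, and dashed lines mark 2-fold. All filled points of glycolytic enzymes lie left of 0, from -1.18 to -0.13, and Pfkfb3 stands alone on the right at 2.42.

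The promoters of 6 of these genes are printed here as picked examples: an enzyme and 4 HIF targets that were lower, and Pfkfb3, which was higher. Not printed are the higher HIF targets Vegfa and Mxi1, or Pfkl, the enzyme furthest down, whose window held 1 match. Each is the 250 bases before a RefSeq transcript start of assembly GRCm38.p6, written 5′ to 3′ on the strand of the gene, with matches to ACGTG or GCGTG on either strand in capitals (CACGT and CACGC are the same letters on the other strand, and a CACGTG counts as 2 matches). Where the table gave several starts, the one with most matches is shown.
Ldha (chr7:46845554-46845803, plus strand): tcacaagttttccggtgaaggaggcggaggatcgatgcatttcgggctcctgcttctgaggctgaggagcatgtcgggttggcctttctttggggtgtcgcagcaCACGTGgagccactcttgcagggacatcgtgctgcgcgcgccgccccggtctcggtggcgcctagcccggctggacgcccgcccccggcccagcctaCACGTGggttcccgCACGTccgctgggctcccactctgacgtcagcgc
Pfkfb3 (chr2:11502091-11502340, minus strand): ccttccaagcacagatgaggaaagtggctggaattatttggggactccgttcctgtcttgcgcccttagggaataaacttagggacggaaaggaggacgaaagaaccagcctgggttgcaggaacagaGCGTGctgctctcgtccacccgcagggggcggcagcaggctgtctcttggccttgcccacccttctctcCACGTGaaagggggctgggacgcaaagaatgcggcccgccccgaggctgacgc
Bnip3 (chr7:138909507-138909756, minus strand): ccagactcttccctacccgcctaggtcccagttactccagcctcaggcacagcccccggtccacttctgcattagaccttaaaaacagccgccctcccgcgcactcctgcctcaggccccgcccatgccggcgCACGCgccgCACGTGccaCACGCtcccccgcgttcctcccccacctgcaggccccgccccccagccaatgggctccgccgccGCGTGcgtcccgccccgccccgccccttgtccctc
Ddit4 (chr10:59951771-59952020, minus strand): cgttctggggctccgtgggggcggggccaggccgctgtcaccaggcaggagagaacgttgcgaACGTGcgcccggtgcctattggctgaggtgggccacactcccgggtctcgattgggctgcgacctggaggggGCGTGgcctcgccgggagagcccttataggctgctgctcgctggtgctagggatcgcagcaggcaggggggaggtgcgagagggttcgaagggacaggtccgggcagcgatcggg
Ankrd37 (chr8:45999851-46000100, minus strand): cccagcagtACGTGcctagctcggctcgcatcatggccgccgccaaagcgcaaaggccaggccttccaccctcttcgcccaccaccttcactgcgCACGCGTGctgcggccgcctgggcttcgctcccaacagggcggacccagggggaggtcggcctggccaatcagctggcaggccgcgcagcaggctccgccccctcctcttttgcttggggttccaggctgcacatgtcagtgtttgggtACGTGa
Ero1a (chr14:45318573-45318822, minus strand): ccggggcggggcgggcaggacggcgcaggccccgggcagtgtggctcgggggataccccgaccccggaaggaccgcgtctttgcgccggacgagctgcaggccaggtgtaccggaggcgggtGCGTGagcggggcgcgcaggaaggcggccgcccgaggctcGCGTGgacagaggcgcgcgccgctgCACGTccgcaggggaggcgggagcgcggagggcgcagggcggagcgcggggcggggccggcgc

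The Ldha and Bnip3 windows held 5 matches each, the Ankrd37 window 4, those of Pfkfb3 and Ero1a (the current symbol of Ero1l) 3 each, and that of Ddit4 held 2. Among the 6 printed genes, the window of Pfkfb3 and those of the lower genes all held the core letters. Genes and starts were picked, so this is no comparison of the directions. RefSeq windows were found for 32 of the 35 named genes, 50 windows in all, some of which overlap because they belong to neighbouring starts of 1 gene. ACGTG was in 54% of these windows and in 16.6% of all 32851 windows of the table, GCGTG in 50% and 28.2%, and either motif in 78% and 38.6%. The list windows also held more CpG dinucleotides, a median of 13.5 against 6 per window, and both motifs contain a CpG. Counted per CpG, 9.31% of those in the list windows lay within a match, against 6.06% in all windows. By gene, 23 of the 24 genes with ratios below 0 and a window held a match, as did 5 of the 5 with ratios above 0. The share over all genes with a window was 41.5%. A gene with more windows has more places for a match. The 24 lower genes had 36 windows, the 5 higher genes 11, and all 27025 genes 32851. By window a match was in 77.8%, 81.8% and 38.6% of these, with a median of 16.5, 13 and 6 CpG. Since nearly every listed gene held a match, the counts by gene cannot separate the directions. ACGTG was in 15 of the lower and 5 of the higher genes (18.5% of all genes). GCGTG was in 19 and 3 (30.9% of all genes). With only 5 higher genes, a difference between the directions was not tested. A match was in 39 of the 50 windows, and Tpi1 and Eno2 were the genes with no match in any window, which says only that these letters are not there. A match is a description of the letters and not a bound site.

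Glucose enters through facilitative transporters. Slc2a1, the widely expressed transporter GLUT1 and a textbook HIF target, read 10.46 log2 on the parental array and 10.12 on the lung-recovered array, a log2 ratio of -0.34. Its other probe sets gave -0.50 and -0.44. The high-affinity transporter gene Slc2a3 (GLUT3) was at the floor on both arrays, at 4.17 and 3.80. The lactate exporter gene Slc16a3 (MCT4) was also at the floor on both, at 4.15 and 4.07, and these were the listed genes just outside the rule. Signal for the classic hypoxia-linked transporters therefore came from Slc2a1 alone, and it was lower by all 3 of its probe sets.

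Hexokinases trap glucose by phosphorylation. Hk1, the housekeeping isozyme, read 10.58 and 10.08, a ratio of -0.50, with -0.48 by its other probe set. Hk2, the isozyme that HIF and insulin signalling raise, read 10.17 and 9.34, which is 1.78-fold lower by its only probe set. The next enzyme, encoded by Gpi1, is listed by no probe set of the annotation and was not analysed here.

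Phosphofructokinase makes the committed step, as a tetramer of liver, muscle and platelet subunits. The liver subunit gene Pfkl read 9.70 and 8.52, a ratio of -1.18 or 2.27-fold lower, and its other probe sets gave -0.97 and -0.78. It was the one listed enzyme past 2-fold, and by the median over its probe sets it was not. The platelet subunit gene Pfkp read 11.33 and 10.68, a ratio of -0.65, with -0.74 by a second probe set. A dimmer probe set read 5.79 and then sat at the floor, at least 2.3-fold lower. For the muscle subunit gene Pfkm the signals were 8.79 and 8.66, a ratio of -0.13. The 3 subunit genes were thus all lower by the representative probe set. The probe sets of Pfkl and Pfkp overlapped through that bound, so these genes are not shown to differ. The typical disagreement between probe sets of 1 gene on these arrays had a median SD of 0.17 and a 90th percentile of 0.49. The Pfkm ratio, from its only probe set, was smaller than that median SD and was -0.03 with arrays scaled to equal medians.

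Aldolase splits the hexose. Aldoa, the main isozyme outside liver and brain, read 13.26 and 12.88, and its 5 probe sets ran from -0.68 to -0.38. Aldoc, the brain-type isozyme, read 8.58 and 8.23, a ratio of -0.35. Tpi1, which interconverts the triose phosphates, read 12.56 on the lung-recovered array, a ratio of -0.44, and its other probe sets read 12.94 and 12.50 (-0.44) and 12.32 and 11.72 (-0.60). None of the 10 probe sets of these genes was above 0.

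The later steps of the pathway yield ATP. Pgk1, the first ATP-producing step, read 13.63 and 13.44, and its 3 probe sets lay between -0.21 and -0.19. Pgam1, the phosphoglycerate mutase, read 12.70 and 12.42, a ratio of -0.28. Pkm, which encodes the pyruvate kinase of most tissues and tumours, read 12.77 and 12.61, a ratio of -0.16. The Pkm ratio was smaller than the median probe-set SD of 0.17, and those of Pgk1 and Pgam1 were above it but within its 90th percentile of 0.49. Ldha, which makes lactate, read 12.86 and 12.40, 1.38-fold lower by its only probe set. Gapdh has probe sets with several symbols in the annotation, Eno1 is listed by none, and both were not analysed here. The neuronal enolase gene Eno2 was at the floor, at 3.84 on both arrays. The enolase step was therefore read only through Eno3, outside the list, at 7.65 and 10.22 or 5.94-fold higher. Many glycolytic enzyme genes have processed pseudogenes that can share signal, and the Aldoa probe sets all carry the suffix _x, which marks probes that match other transcripts.

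Over the 12 measured enzymes the median log2 ratio was -0.41, and it lay between -0.48 and -0.31 under the 10 other ways of processing tried. All 12 ratios were below 0 under each scaling between arrays. The spread of ratios differed with signal strength and was not steady: among measured genes the SD of the ratio was 0.37 at a mean signal of 4 to 6 log2, 0.69 from 6 to 8, 0.56 from 8 to 10, 0.44 from 10 to 12 and 0.36 above that. Its part in the sizes of the enzyme ratios was not tested. Among those 340 genes of 12 log2 or more, 50.6% were below 0 with a median of -0.01, while the listed genes in that range were below 0 in 6 of 7 cases with a median of -0.28. From 10 to 12 log2, 43.6% of 1907 genes were below 0, and 6 of 7 listed genes. From 8 to 10 log2 the shares were 42.1% and 8 of 11, with a listed median of -0.13. From 6 to 8 they were 45.6% and 3 of 4, and from 4 to 6 they were 64% and 1 of 2. The listed genes in these ranges are not only enzymes.

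**Figure D2:**
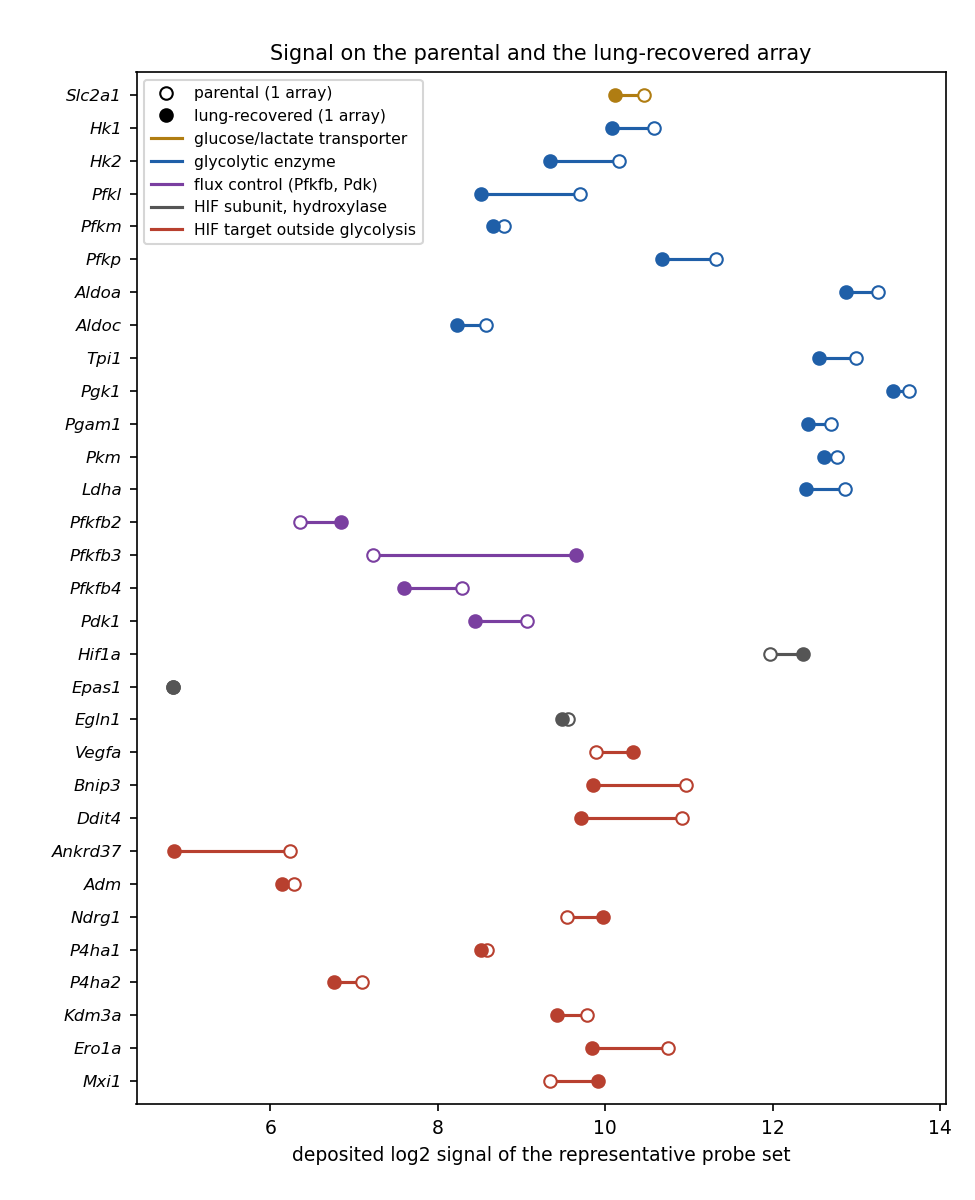
Deposited log2 signal (x axis) of each representative probe set on the parental array (open) and the lung-recovered array (filled), 1 array each. Levels of different genes are not comparable on this axis, since probe sets differ in brightness. For each enzyme the filled point lies to the left of the open one, while for Pfkfb2, Pfkfb3, Hif1a, Vegfa, Ndrg1 and Mxi1 it lies to the right.

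The bifunctional enzymes of the Pfkfb family make and break fructose 2,6-bisphosphate, the strongest activator of phosphofructokinase, and Pfkfb3 encodes the member with the highest kinase activity. Pfkfb3 read 7.23 in the parental line and 9.65 after recovery from lung, a log2 ratio of 2.42 and rank 58 from the highest of the 13332 measured genes. Its dimmer probe set read 5.38 and 6.43, a ratio of 1.05, so both probe sets were past 2-fold but they differed in size. Averaging its probe sets on each array gave 1.73. Pfkfb2, the heart-type member, read 6.35 and 6.84, a ratio of 0.49. Of its other probe sets, 2 gave 0.52 and 0.64, and the dimmest gave -0.11 close to the floor. Pfkfb4, which like Pfkfb3 is a known HIF target, went the other way, at 8.29 and 7.60 and 1.61-fold lower by its only probe set. Pfkfb1 is listed by no probe set of the annotation and was not analysed here.

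Pdk1 encodes the kinase that shuts pyruvate out of the mitochondrial pyruvate dehydrogenase complex and is a textbook HIF target. It read 9.07 and 8.44, a ratio of -0.63, and its other measured probe sets gave -0.76 and -0.60. With Slc2a1 and these regulators, the 17 measured glycolytic genes had a median of -0.38. Of these 15 were below 0, against 48.7% of all measured genes, and both of those above 0 were in the Pfkfb family.

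The HIF subunits and their hydroxylases come next. Hif1a, whose protein is controlled mainly by degradation, read 11.97 and 12.36, a ratio of 0.39, with 0.18 and 0.41 by its other measured probe sets. It lies on chromosome 12, where the median ratio of the 454 measured genes was 0.27, and the part of that shift in the Hif1a value was not tested. Epas1 (HIF-2 alpha) was the listed gene just inside the rule, at 4.84 on both arrays. Egln1 (PHD2), the main oxygen-sensing hydroxylase, read 9.56 and 9.48 by its representative probe set and 8.40 and 8.97 by the other, ratios of -0.08 and 0.57, so its direction depends on the probe set. Egln3 (PHD3), a strong hypoxia-induced gene in many cells, was at the floor on both arrays, at 3.30 and 3.18.

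Of the 11 measured HIF targets outside glycolysis, 3 were at least 2-fold lower by the representative probe set, against 2.55% of all measured genes. Bnip3, a mitochondrial outer membrane protein that promotes mitophagy, read 10.97 and 9.85, 2.17-fold lower. Its relative Bnip3l has only probe sets with several symbols and was not analysed here. Ddit4 (REDD1), an inhibitor of mTORC1, read 10.92 and 9.71, 2.31-fold lower. Ankrd37, a small ankyrin repeat gene that HIF-1 induces, read 6.24 and 4.85, 2.62-fold lower. Each of these genes has 1 probe set, so no second reading checks them. On the lung-recovered array Ankrd37 was close to the floor of 4.59, and raising the floor to the 60th percentile left a ratio of -0.09. Counted from the lowest ratio of all 13332 measured genes, Ankrd37 had rank 176, Ddit4 rank 231 and Bnip3 rank 275.

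Other listed targets were lower by less than 2-fold by the representative probe set. Ero1l, now named Ero1a, encodes the oxidase that re-oxidises protein disulfide isomerase in the endoplasmic reticulum. It read 10.75 and 9.84, a ratio of -0.91, and its other probe sets gave -1.56 and -1.19, so 2 of its 3 probe sets were past 2-fold. P4ha2, a collagen prolyl hydroxylase subunit, read 7.09 and 6.76, a ratio of -0.33. The related P4ha1 read 8.59 and 8.52, a ratio of -0.07, with -0.22 by its other probe set and 0.03 when the arrays were scaled to equal medians. Kdm3a, a histone H3 lysine demethylase, read 9.78 and 9.42, 1.28-fold lower.

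The 3 targets above 0 had probe sets that agreed closely. Vegfa, the vascular endothelial growth factor, read 9.89 and 10.33, a ratio of 0.44, with 0.48 by its other probe set. Ndrg1, a stress and differentiation gene that hypoxia induces, read 9.55 and 9.97, and its 5 probe sets ran from 0.42 to 0.65. Mxi1, a MAX-binding antagonist of MYC, read 9.34 and 9.92, with ratios of 0.58 and 0.57. Adm, the vasodilator peptide adrenomedullin, had no settled direction, with 6.28 and 6.14 by 1 probe set and 6.13 and 6.28 by the other.

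The 11 measured targets ran from -1.39 to 0.58, with a median of -0.33, 8 below 0 and 3 above. Of all measured genes 48.7% were below 0. With the HIF subunits and hydroxylases, the 14 HIF genes outside glycolysis had a median of -0.11. Of these 14, 3 were at least 2-fold lower and 0 higher, against 2.55% and 4.42% of all measured genes. The count of 0 higher is near that background. The ratios of these HIF genes covered both sides of 0, whereas those of the listed enzymes lay on one side. This difference in spread was not tested, since each line had 1 array. Of the 19 measured genes with several measured probe sets, 16 had them all on one side of 0, the exceptions being Pfkfb2, Egln1 and Adm.

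**Figure D3:**
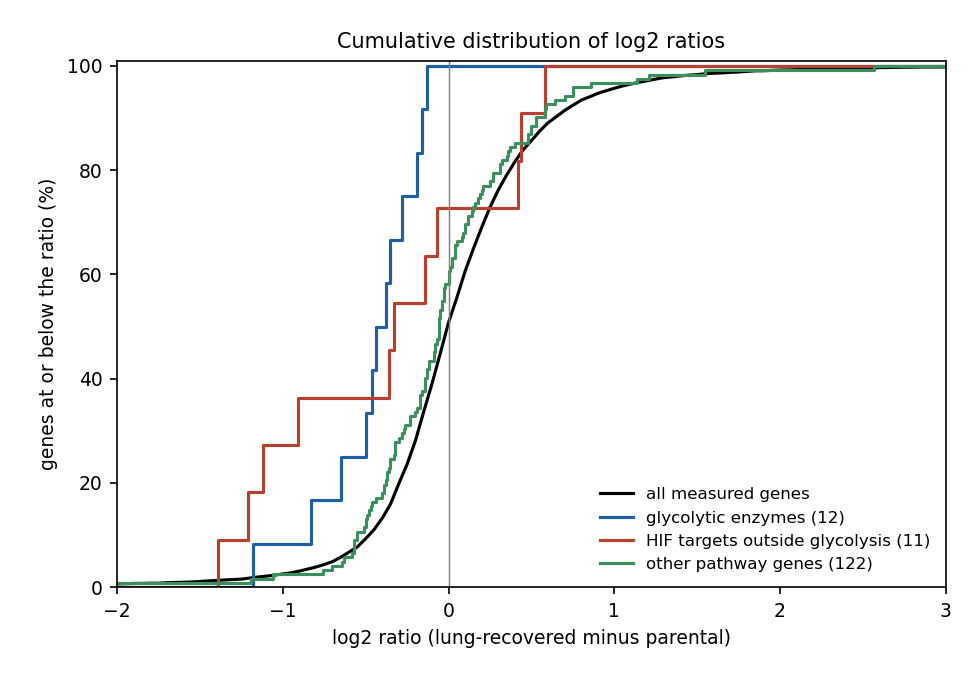
Cumulative share of genes (y axis, percent) at or below each log2 ratio (x axis, lung-recovered minus parental) for all 13332 measured genes, the 12 enzymes, the 11 HIF targets outside glycolysis and 122 other genes of these pathways. The enzyme curve reaches 100 percent before 0, the HIF target curve crosses that of all genes, and the curve of the other pathway genes stays close to it.

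By chromosome, of the measured genes, 4 lie on chromosome 10 (Hk1, Pfkl, Ddit4 and P4ha1) and 4 on chromosome 7 (Aldoa, Ldha, Bnip3 and Adm), and all 8 had ratios below 0. The medians of all measured genes were 0.02 on chromosome 10 (636 genes) and -0.02 on chromosome 7 (1037 genes). Apart from chromosome 12, the chromosome medians for the listed genes lay between -0.06 and 0.02.

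A wider list of 148 genes of the same pathways shares no gene with the 40 and was also chosen with earlier results known. It had 122 measured members. Of these, 3 were at least 2-fold lower and 4 at least 2-fold higher, against 2.55% and 4.42% of all measured genes, so the shares were near the background. The median was -0.06, or 0.04 with arrays scaled to equal medians, where that of all measured genes was 0.00 and 0.10. By function it split as follows.

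Of 23 measured isozymes, transporters and lactate genes, 1 was at least 2-fold higher (4.42% of all measured genes) and 0 lower (2.55%). The exception was Eno3, the muscle enolase, at 7.65 and 10.22 or 5.94-fold higher by its only probe set. Furthest down was Pklr, the liver and red cell pyruvate kinase, at 7.58 and 7.0, while its other probe sets gave -0.42 and 0.00. The list for the entry of pyruvate into mitochondria holds the pyruvate dehydrogenase complex, the kinases that block it, its phosphatases, a pyruvate carrier and pyruvate carboxylase. Of its 11 measured genes, 8 were below 0, against 48.7% of all measured genes, and the median was -0.32. Above 0 were Dld and the kinase genes Pdk2 (0.18) and Pdk3 (0.14). Pdk2 read 4.59 and 4.87, below the 4.69 floor on the parental array, so its 0.18 is only a bound. Among the 11 genes, Pdha1, the catalytic subunit of pyruvate dehydrogenase, read 11.99 and 11.42 and gave -0.75 by its other probe set. Pdp2, a phosphatase that reactivates that complex, had the same ratio of -0.57, and Dld, its lipoamide dehydrogenase, had the highest, at 0.25.

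Of 17 genes of gluconeogenesis, glycogen and hexose phosphates, 8 were below 0 and 9 above, with a median of 0.01. The share below 0 was near the 48.7% of all measured genes. Pck2, the mitochondrial phosphoenolpyruvate carboxykinase, read 10.45 and 9.26 and was 2.28-fold lower, with 2.25-fold by its other probe set. At the other end was Pgm3, of the hexosamine pathway, with a ratio of 0.70. Of 7 pentose phosphate genes 0 passed 2-fold, near the background of 2.55% lower and 4.42% higher. The transketolase gene Tkt was lowest at -0.23, and H6pd, the enzyme of the endoplasmic reticulum, was highest at 0.58.

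Among 16 HIF partners, hydroxylases and degradation genes, 0 passed 2-fold, near the background of 2.55% lower and 4.42% higher, and the median was -0.09. The lowest was Rbx1, a ubiquitin ligase subunit, at 5.50 and 4.74, and the highest Cited2, a feedback inhibitor of HIF, at 11.99 and 12.47. Arnt, the partner subunit, had a ratio of 0.40, with its other probe sets from 0.00 to 0.30, and Vhl, which targets HIF for destruction, had -0.13. These last genes were picked for their role after their values were seen.

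Further HIF targets were evenly divided, with 24 of 48 below 0 (48.7% of all measured genes) and a median of -0.01. Tfrc, the transferrin receptor, which iron shortage also raises, read 12.68 and 9.36 and was 9.99-fold lower, with 7.46-fold and 7.31-fold by its other probe sets. Stc2, a secreted glycoprotein, was 2.08-fold lower, but its other probe sets gave 1.75-fold and 1.14-fold. Higher were Plod2, a collagen lysyl hydroxylase, at 2.20-fold and 2.73-fold by its probe sets, and Rbpj, the DNA-binding factor of Notch signalling, from 1.72-fold to 2.31-fold. Akap12, a kinase anchoring protein, read 4.82 and 6.37, 2.93-fold higher from close to the 4.69 floor of the parental array. At least 2-fold lower were 2 of these 48 targets and higher were 3, shares near those of all measured genes (2.55% and 4.42%).

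Median signals of the arrays were 5.36 log2 for the parental and 5.26 for the lung-recovered line. The epithelial origin was visible in both, with Epcam, Cdh1, Krt8, Krt18 and Krt19 above 10 log2, while Krt20 and Vil1, intestinal markers, did not exceed the floor of either array and Cdx2 read 5.24 and 5.08. Epcam (0.84) and Krt18 (0.92) were higher in the lung-recovered line, and the summed linear signal of the 8 epithelial markers was 22621 in the parental and 29865 in the lung-recovered line. Host cells are also of mouse, so their RNA would be read by the same probes. The host markers Ptprc, Pecam1, Col1a1, Col3a1, Sftpa1 and Scgb1a1 were at the floor on both arrays. Other host markers were above it on both, among them Sftpb (6.70 and 6.32), Ager (6.15 and 5.45) and Cd3e (6.01 and 6.00). Kdr (5.94 and 5.89) and Acta2 (5.83 and 5.64) were also above it. Of the named host markers, 4 of 9 for fibroblast and mural cells were measured, 3 of 6 for endothelium, 3 of 6 for leukocytes, 4 of 7 for lung epithelium and 0 of 2 for red cells. Their summed linear signals were 252 and 222, 503 and 738, 233 and 330, 293 and 225, and 31.4 and 32.6 on the parental and lung-recovered arrays. Past 2-fold were Cdh5 (4.21 and 9.30, at least 24.4-fold higher), Tek (8.57 and 3.43, at least 15.8-fold lower) and Csf1r (6.42 and 7.54, 2.17-fold higher). The second Cdh5 probe set gave at least 1.78-fold higher, and the other Csf1r probe sets gave 1.72-fold and 1.01-fold. The part of any host cells in the ratios above was not tested.

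**Figure D4:**
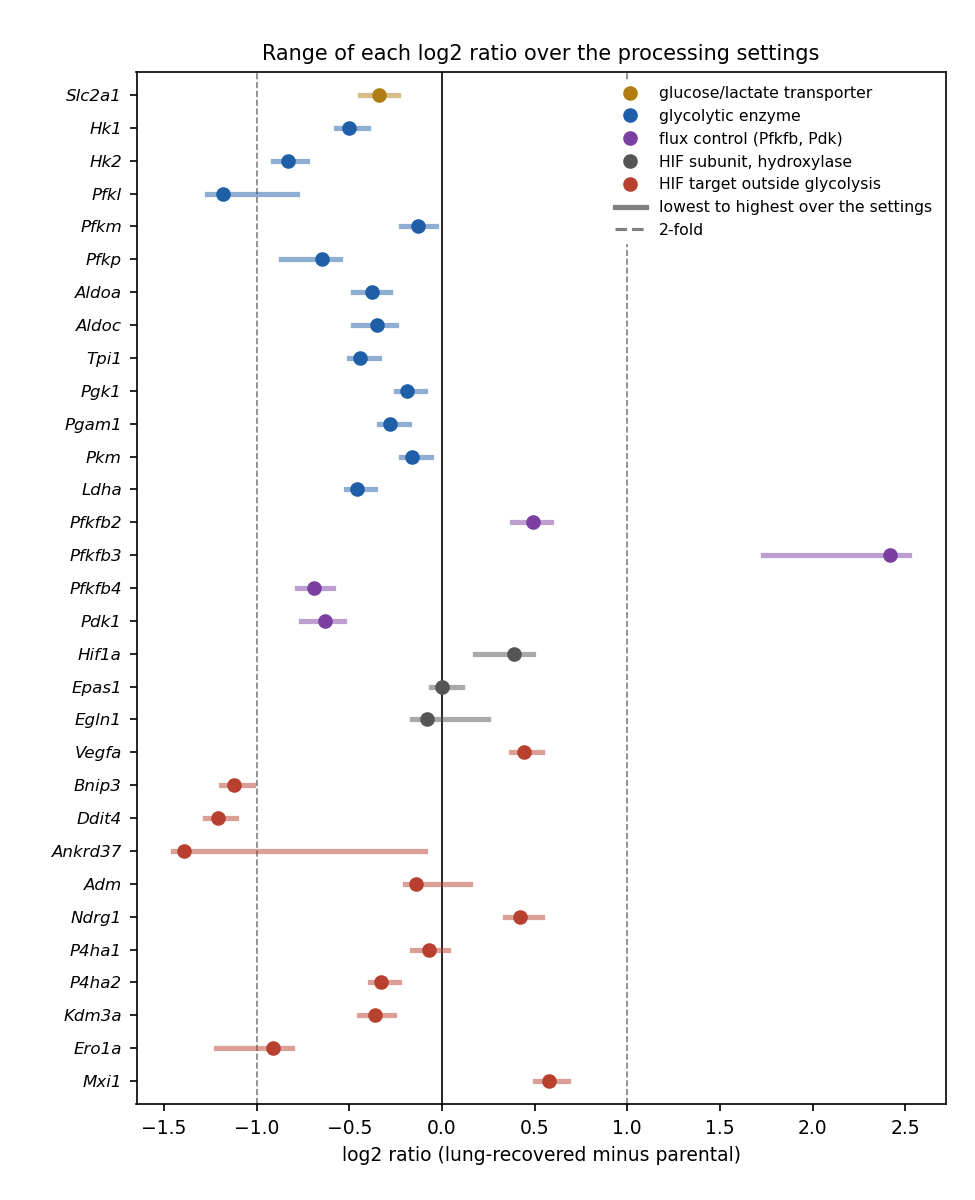
Log2 ratio (x axis) of each of the 31 genes as reported (point) and its range over the settings tried (bar), with dashed lines at 2-fold. The bars of Epas1, Egln1, Adm and P4ha1 cross 0, that of Ankrd37 reaches from -1.45 to -0.09, and no other bar reaches 0.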

How the data were processed

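Total RNA of each culture was hybridised as biotin-labelled cRNA to 1 array per line, per the labels' protocols. The deposited values are log2 signals with 2 decimals for 45037 probe sets. Base 2 was inferred from their range of 1.89 to 14.28. MAS5 appears in the submitters' processing notes without a stated role, and any scaling between arrays by the authors is unknown here. Values were used as deposited and floored per array at the 40th percentile, 4.69 and 4.59 log2.

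Of the probe sets, 34945 carry 1 symbol, updated by Entrez identifier to GRCm38.p6 for 34741, 932 carry several and were not named, and the rest are unlisted. The brightest probe set by mean signal stood for a gene. Genes were counted at 2-fold and 1.5-fold. With 1 array per group no test was made, and the number of arrays limits the precision. All listed genes are named. From each wider list the text names genes past 2-fold and, where fewer than 2 passed, the extremes. From each marker list it names the genes past 2-fold and others chosen for their role or signal. The listed genes and all other lists were chosen with earlier results of these data known. Python 3.11.15, pandas 2.3.3 and statsmodels 0.14.6 were used, and the steps were tested on simulated data. Alternatives were scaling (equal medians, quantile, trimmed means, lowess), the floor (20th percentile, 60th percentile, none) and the choice of probe set (median ratio, mean signal, no suffixed ones).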

Additional observations from a re-analysis of the deposited data

How the results depend on the processing

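The direction of 27 of the 31 measured genes was the same under every setting that measured them, 21 below 0 and 6 above. The other 4 were Epas1, Egln1, Adm and P4ha1. Under the alternatives, 290 of 303 values moved by less than 0.17 log2, the median SD between probe sets. Many of these values could not move that far. A lower floor leaves the ratio of a gene above it unchanged, and equal medians or trimmed means shift all these ratios alike. For a gene with 1 probe set there is no other to choose. The count of 290 is therefore no measure of robustness. Pfkl lost its 2-fold call under each other choice of probe set, which left 0 enzymes and 0 glycolytic genes at least 2-fold lower by the median over probe sets, by their mean and without suffixed probe sets. Without suffixed probe sets only 7 enzymes could be measured, and 7 of them were below 0. The median of the 31 genes ran from -0.40 to -0.24 and that of the HIF genes outside glycolysis from -0.17 to -0.01. Scaling to equal medians put the median of all measured genes at 0.10 log2. No paired analysis was possible because each group had 1 array and no test was made. Probe sets near the floor, such as that of Ankrd37, are limited by low signal.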
